A study of Rattus norvegicus with 6 samples.

Results

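The zinc finger protein genes Zfp600 to Zfp999 of the mouse were examined in liver RNA. Members were the rows typed as protein-coding whose symbol is Zfp followed by 3 digits, the first of them 6 or higher, which gave 166 of the 32930 genes listed and of the 17713 protein-coding genes. A further 3 rows with such symbols, Zfp939, Zfp783 and Zfp660, were of other transcript types and were left out of the 169 name matches. The number in the symbol is a catalogue number and defines no family by function.

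Most proteins of this kind carry an array of fingers, short loops that each hold a zinc ion and read a few bases of DNA. In many of them a KRAB domain lies before the fingers and recruits the corepressor Trim28 (KAP1), which brings the histone H3 lysine 9 methyltransferase Setdb1, heterochromatin protein 1 and the NuRD complex to the bound site. KRAB zinc finger genes lie in tandem arrays, turn over quickly between species and are best known for silencing endogenous retroviruses. In the mouse liver such repressors dampen sex-dependent genes, and loss of Trim28 from hepatocytes leads to fatty liver.

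The annotation that came with the counts fits the name. The term metal ion binding was given to 155 of the 166 members (93.4%, against 19.0% of protein-coding genes), and regulation of transcription by RNA polymerase II to 146 (88.0% against 7.75%). A repressor activity term stood with 21 members and an activator activity term with 27. The Reactome entry for KRAB zinc finger and KAP interaction listed 76 members. Members lay on 19 chromosomes, with 34 on chromosome 7, 22 on chromosome 17 and 20 on chromosome 4.

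The liver libraries came from a study of the Huazhuo Tiaozhi granule (HTG), a herbal formula tested against disordered blood lipids. The HFD group (3 libraries) received a high-fat diet with 0.5% sodium carboxymethyl cellulose as vehicle, and the HTG group (3 libraries) received a high-fat diet with HTG, and the series' design text gives 12 weeks for both. For its rats the study's methods give 12 weeks of diet, with gavage in the last 8. The design text of the series speaks of 6 rats and the sample labels name the rat, whereas the RNA sequencing methods of the study name C57BL/6 J mice, and the table holds gene identifiers of the mouse from Ensembl. The rows are treated here as mouse genes. The treatment label of the HTG libraries spells the agent HCG, and the titles and the design text spell it HTG. The labels give no strain, age or dose and do not tie each library to its own animal, so the p-values measure the spread between these libraries, which may be technical.

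Total counts were 65353298, 70910444 and 69907057 for HFD libraries 1 to 3, against 78549295, 90563477 and 50648778 for HTG libraries 1 to 3. Counts of 4, 8, 12 and 16 occurred 6450, 3333, 2041 and 1397 times, each more often than the counts next to them (2549 values of 3, 1757 of 5, 1521 of 7, 1170 of 9, 1113 of 11, 921 of 13, 851 of 15 and 770 of 17). Counts of 6, 10 and 14 (2171, 1495 and 1086 values) also stood above the odd counts beside them, so a unit of 2 counts is possible too. One fragment was taken as about 4 counts, the larger unit, although 5104 values of 1 and 4229 of 2 also occurred. With a smaller unit the limit that follows would be lower. An empty gene then allows up to 3 fragments, or 12 counts, which is 0.123 to 0.256 CPM (counts relative to library size, after TMM scaling) depending on the library. Both limits leave out any error but that of counting. Over genes, which are no independent replicates, HTG library 1 correlated with HFD library 1 (r = 0.959) as closely as with HTG library 2 (r = 0.959), and counts of calls are therefore also given without it.

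Of the 166 members, 156 passed edgeR's filter on low counts and 10 (6.02%) were too low to judge. Zfp711, Zfp986, Zfp990 and Zfp998 had 0 counts in all 6 libraries. Zfp819, Zfp957, Zfp985, Zfp988 and Zfp989 stayed at or under 12 counts in each library, and Zfp978 reached 15 counts in HFD library 1 and 6 in HFD library 2, with 0 in the other libraries. Of these 10 genes, 6 sit in the chromosome 4 array described later. Zfp819, a silencer of retroviral elements in pluripotent cells, had 8, 0 and 8 counts in HFD and 12, 6 and 0 in HTG. For these genes no difference was detectable at this depth.

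The tested members were weakly expressed. Their median level was 0.986 FPKM, against 2.29 FPKM for the tested protein-coding genes, and 77 of 156 (49.4%) reached a mean of 1 FPKM, against 66.7% of the tested protein-coding genes. A mean of 10 FPKM was passed by 3 members. The highest levels per transcript length were those of Zfp707 (16.2 FPKM), Zfp970 (14.9 FPKM), Zfp706 (13.4 FPKM), Zfp825 (9.46 FPKM) and Zfp809 (8.65 FPKM), averaged over the 6 libraries. Counts above 12 were found for 155, 150 and 153 members in HFD and for 153, 156 and 151 in HTG.

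The comparison of HTG with HFD asks what the formula changes in a liver under the high-fat diet. At an adjusted p under 0.1 in the quasi-likelihood test of edgeR (Benjamini-Hochberg adjustment over 18455 genes), 18 of the 156 tested members (11.5%) were higher in HTG, where 5.41% of all genes tested were higher. No member was lower at that threshold in edgeR, where 5.43% of all genes were lower; at an unadjusted p under 0.05 there were 5 lower members, and DESeq2 called 0 lower at an adjusted p under 0.1, where it called 8.47% of all genes lower. With an adjusted p under 0.05, 0 members passed in either direction, as did 0.00542% of all genes upwards and 0.00542% downwards, 1 gene each way. DESeq2 at this threshold had 16 members higher (10.3%, against 4.65% of all genes) and 0 lower (against 5.81% of all genes). An unadjusted p under 0.05 was met by 38 higher members (12.3% of all genes) and by the 5 lower ones (12.4% of all genes). In bulk tissue, fewer cells of a type and less RNA per cell cannot be told apart, and this holds for each value given here.

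The count of calls depended on which libraries entered and on the model. When edgeR took the replicate number as a block it called 0 of all genes and so 0 members. The unadjusted p was then under 0.05 for 36 members fitted higher (23.1%, against 10.4% of all genes) and 1 fitted lower (0.641% against 10.5%). Without HFD libraries 1, 2 and 3 in turn, 2 (1.28%, against 1.05% of all genes), 0 and 0 members were called higher. Without HTG libraries 1, 2 and 3 these were 12 (7.69%, against 5.19% of all genes), 0 and 0. With HTG library 1 left out, Zfp706 was the 1 lower member (0.641%, against 8.16% of all genes). Over all genes the calls in both directions went to 417, 16 and 0 without HFD libraries 1, 2 and 3 and to 2578, 0 and 0 without HTG libraries 1, 2 and 3. The 18 members, chosen on all 6 libraries, had an unadjusted p under 0.05 in each of these fits, except that 17 did so without HTG library 1. With no filter on low counts 11 members were higher (6.79%, against 2.14% of all genes). DESeq2 called 22 members higher (14.1%, against 7.12% of all genes), among them the 18 of edgeR.

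The median log2 fold change of the 156 tested members was 0.33, against 0.03 for all genes tested, and 119 of them (76.3%) were fitted above 0, against 51.6% of all genes. The 3 HTG libraries lay above the 3 HFD libraries in 50 members (32.1%, where 16.5% of all genes did so) and below them in 6 (3.85%, where 15.5% of all genes did so). The median deviation of the tested members from their own mean was -0.14, -0.09 and -0.19 log2 units in HFD and 0.06, 0.20 and 0.19 in HTG, in the order of the library numbers. HTG library 1 was thus the nearest of its group to the HFD libraries. Among the tested members, the highest level was in HTG library 2 for 48, in HTG library 3 for 46, in HFD library 2 for 26, in HTG library 1 for 18, in HFD library 3 for 10 and in HFD library 1 for 8. Summed over all 166 members, the level was 1164, 1255 and 1072 CPM in HFD and 1318, 1535 and 1508 CPM in HTG, a sum to which the more abundant genes contribute most.

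**Figure D1:**
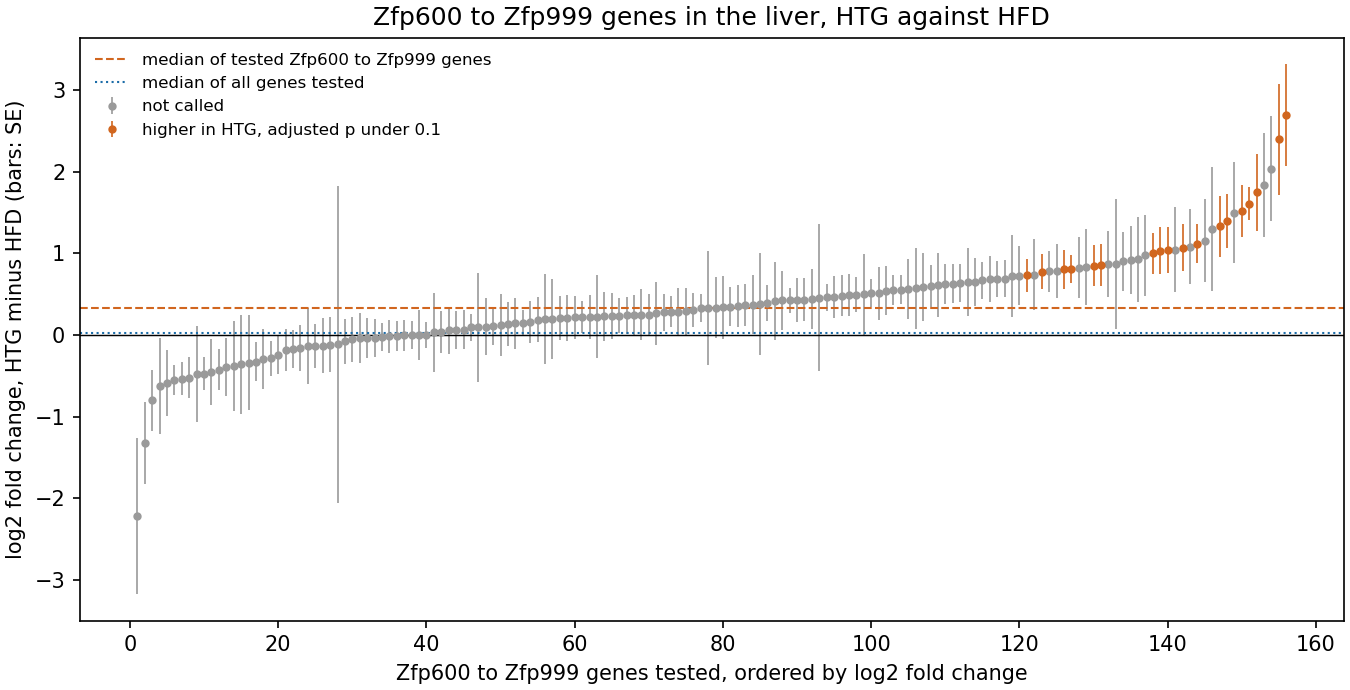
Log2 fold changes of the 156 tested Zfp600 to Zfp999 genes (HTG minus HFD, vertical axis, bars are standard errors) in rising order along the horizontal axis, with the 18 genes at an adjusted p under 0.1 in orange. The dashed line marks the members' median of 0.33 and the dotted line the median of 0.03 over all genes tested, and 119 of the points lie above 0.

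The smallest p among members was that of Zfp692 (ENSMUSG00000037243, chromosome 11, 58197895 to 58205453, plus strand), which encodes a nuclear factor that AMP-activated protein kinase phosphorylates, that was described as a repressor of a gluconeogenic gene in liver, and that also acts in ribosome biogenesis. Its level in libraries 1 to 3 was 7.97, 6.81 and 7.03 CPM in HFD and 18.4, 27.6 and 20.6 CPM in HTG. The groups stood well apart, with the lowest HTG library above each HFD library. The log2 fold change was 1.61 (SE 0.20, n = 3 per group, edgeR adjusted p = 0.0527). The neighbouring member Zfp672 on the same chromosome had a log2 fold change of -0.25 (SE 0.23, edgeR adjusted p = 0.541).

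Zfp707 (chromosome 15), the member with the highest mean FPKM, stood at 37.2, 47.8 and 27.8 CPM in HFD and at 67.1, 96.8 and 81.4 CPM in HTG. HTG library 1 was the lowest of its group and still above HFD library 2. HTG exceeded HFD by a log2 fold change of 1.12 (SE 0.24, edgeR adjusted p = 0.0605). Zfp950 (chromosome 19) had 23.3, 15.0 and 28.4 CPM in HFD and 40.3, 78.9 and 72.2 CPM in HTG, so that HTG libraries 2 and 3 were far above HTG library 1. The fitted log2 fold change was 1.52 (SE 0.31, edgeR adjusted p = 0.0585). The gene overlaps Grk5, a receptor kinase on the opposite strand, with a log2 fold change of -0.18 (SE 0.30).

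Zfp872 (chromosome 9) had the largest fitted change among the called members. Its raw counts were 40, 22 and 69 in HFD and 115, 379 and 324 in HTG, or 0.587, 0.330 and 0.961 CPM against 1.48, 3.88 and 6.92 CPM. HTG library 1 was again nearest to HFD. The log2 fold change was 2.70 (SE 0.62, edgeR adjusted p = 0.0616), and without HTG library 3 it was 2.09. A noncoding RNA gene on the opposite strand, 1810064F22Rik, overlaps it and had 550, 149 and 493 counts in HFD and 677, 1813 and 2191 in HTG, with a log2 fold change of 2.10. The study's methods describe a second strand marked with dUTP and removed by an enzyme, which keeps strand, whereas the labels name a general kit. If strand entered the counting is not stated, so how far reads of this pair were kept apart is open.

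Zfp658 (chromosome 7), whose human counterpart is known for zinc-dependent repression of zinc transporter genes, had 122, 84 and 71 counts in HFD and 314, 287 and 172 in HTG. On the scaled level the HTG libraries were close together, at 4.03, 2.94 and 3.67 CPM, above 1.79, 1.26 and 0.988 CPM in HFD. The log2 fold change was 1.40 (SE 0.33, edgeR adjusted p = 0.0627). Zfp938 (chromosome 10) stood at 2.95, 4.11 and 2.83 CPM in HFD and at 6.25, 7.36 and 6.15 CPM in HTG. On the log2 scale the fold change was 1.0 (SE 0.25, edgeR adjusted p = 0.0676). Both genes overlap no other listed gene.

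Zfp865 (chromosome 7) had 17.8, 16.6 and 19.7 CPM in HFD and 27.5, 36.3 and 31.3 CPM in HTG, a narrow spread in each group. The fitted log2 fold change was 0.81 (SE 0.17, edgeR adjusted p = 0.0585). Of the 5 listed genes that overlap it, the member Zfp784 on the opposite strand had the opposite sign, with 27, 50 and 47 counts in HFD and 10, 23 and 0 in HTG. HTG libraries 1 and 3 lay under the limit of an empty gene, so the fitted log2 fold change of -2.22 (SE 0.96, edgeR adjusted p = 0.196), which did not pass the test, depends on how such low counts are treated.

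Zfp661 (chromosome 2) went from 5.43, 4.51 and 3.16 CPM in HFD to 7.29, 11.4 and 8.37 CPM in HTG, with a log2 fold change of 1.05 (SE 0.28, edgeR adjusted p = 0.0796). Zfp956 (chromosome 6) went from 5.25 ± 1.28 CPM to 10.7 ± 3.22 CPM (mean ± SD, n = 3), with a log2 fold change of 1.04 (SE 0.28, edgeR adjusted p = 0.0824). In Zfp956 the lowest HTG library, number 3, had 7.94 CPM and was close to the highest HFD library, number 1, with 6.72 CPM. It overlaps the excluded row Zfp783 on the same strand, which had 25, 10 and 28 counts in HFD and 45, 93 and 54 in HTG. The remaining called members were Zfp977, Zfp932, Zfp839, Zfp715, Zfp981, Zfp760, Zfp606, Zfp653 and Zfp788, and the log2 fold changes of all 18 ran from 0.73 to 2.70 with a median of 1.06.

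In these 18 genes HTG library 2 was the highest library in 11, HTG library 3 in 4 and HTG library 1 in 3, and HTG library 1 was the lowest of its group in 11. On the CPM scale the HFD and HTG values did not overlap in any of the 18, as in 99.4% of all genes called higher. In raw counts they overlapped in 4 (Zfp956, Zfp715, Zfp606 and Zfp653), and in FPKM in 1 (Zfp760). Of the 18, 13 belonged to the more abundant part of the tested members, above their median FPKM (16.7% of 78 genes). The rest held 5 (6.41% of 78 genes), where 5.41% of all genes tested were called higher. The median log2 fold change was 0.34 in the more abundant part and 0.33 in the rest. The shares fitted above 0 were 76.9% and 75.6%, against 51.6% of all genes.

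**Figure D2:**
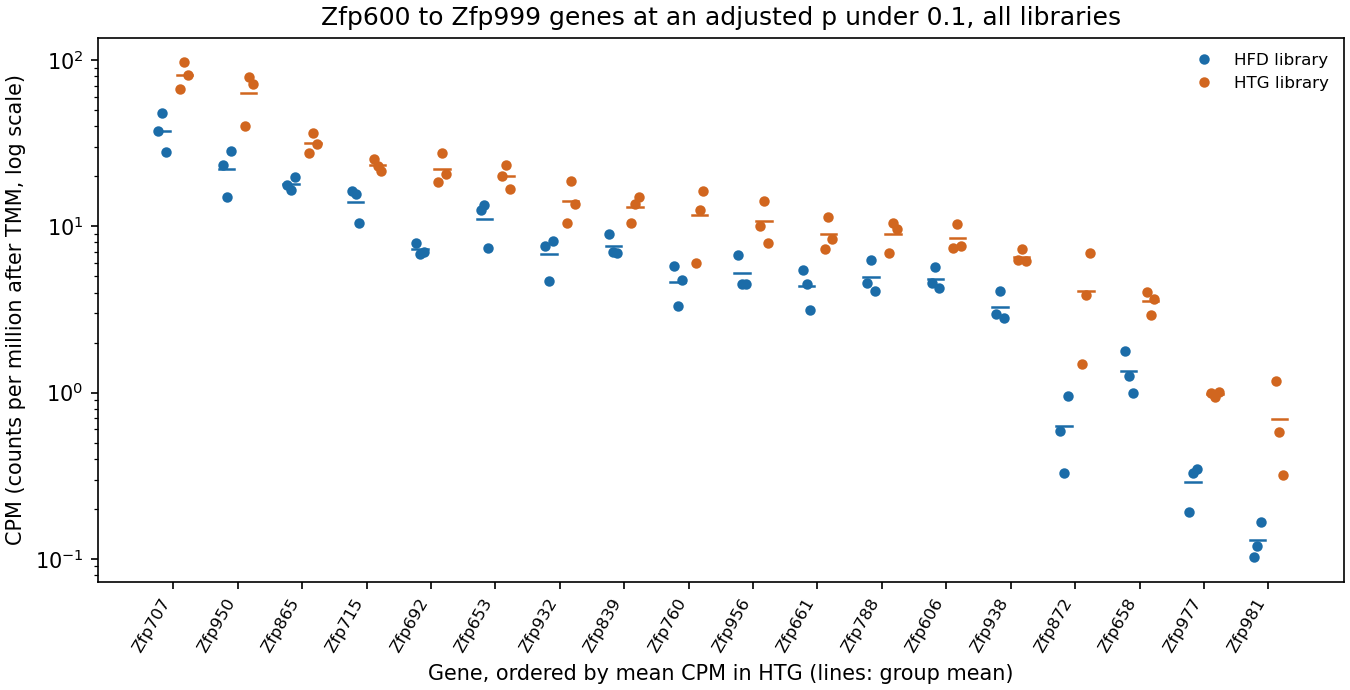
Level of the 18 called Zfp600 to Zfp999 genes in each library (CPM after TMM scaling, log axis), with HFD libraries in blue, HTG libraries in orange and group means as short lines, ordered by mean level in HTG from Zfp707 to Zfp981. All 3 HTG points lie above all 3 HFD points for each gene, and Zfp872, Zfp977 and Zfp981 have the lowest HFD levels, below 1 CPM.

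Among members that did not pass, Zfp641, Zfp952 and Zfp820 lay just outside the threshold, with edgeR adjusted p = 0.104, 0.107 and 0.108. Zfp641 had 45, 9 and 42 counts in HFD and 74, 209 and 123 in HTG. Its log2 fold change was 2.04 (SE 0.64), and HFD library 2 lay under the limit of an empty gene. Of the 138 tested members that were not called, 32 (23.2%) had HTG libraries above the HFD libraries throughout and 6 (4.35%) had them below throughout, in CPM. Of all 16454 tested genes without a call 12.5% and 11.4% did so, and of all genes tested 16.5% and 15.5%.

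Zfp692, Zfp872, Zfp950, Zfp641 and Zfp981 are drawn in a heatmap of transcription genes in the study, which chose them on these same libraries. Their direction here is therefore no independent evidence. Zfp981 was at 7, 8 and 12 counts in HFD, none above what an empty gene allows, and at 91, 57 and 15 counts in HTG. HTG library 3 was barely above that limit. The fitted log2 fold change of 2.40 (SE 0.68, edgeR adjusted p = 0.0853) depends on how such low counts are treated, was 1.75 without HTG library 1, and lost its call with no filter on low counts.

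The role list held 20 members with a described function, of which 18 were tested. At an adjusted p under 0.1 edgeR had 2 higher (11.1%, against 5.41% of all genes) and 0 lower (against 5.43%). DESeq2 had 2 and 0, where it called 7.12% and 8.47% of all genes. At an unadjusted p under 0.05 there were 4 higher (22.2%, against 12.3% of all genes) and 3 lower (16.7% against 12.4%). Of the 18, 8 were fitted above 0 (44.4%, against 51.6% of all genes), at a median log2 fold change of -0.01. Of the silencers of endogenous retroviruses, Zfp932 rose, with 7.59, 4.66 and 8.14 CPM in HFD and 10.5, 18.6 and 13.7 CPM in HTG. The log2 fold change of Zfp932 was 1.07 (SE 0.29, edgeR adjusted p = 0.0809). Zfp809, which recognises the primer binding site of murine leukaemia type proviruses, had 20.4, 14.5 and 30.7 CPM in HFD and 18.7, 31.1 and 47.2 CPM in HTG. The groups overlapped, with HTG library 1 below HFD libraries 1 and 3, and the log2 fold change was 0.56 (SE 0.37, edgeR adjusted p = 0.384).

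Zfp708, a silencer of another retroviral element, had an all-or-none pattern of 351, 0 and 121 counts in HFD and 0, 610 and 0 in HTG. Libraries of each group were at 0, so that the fitted change of -0.11 (SE 1.95) carries no information on direction. Gm28557, which overlaps it on the same strand, had 249, 519 and 363 counts in HFD and 987, 260 and 362 in HTG. In HFD library 2 and HTG library 1, both without counts for Zfp708, the count of Gm28557 was the highest of its group. HTG library 3, also without counts for Zfp708, had 362 for Gm28557, below the 987 of HTG library 1. The assignment of reads between the pair is thus uncertain.

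Of the members that act on RNA, ribosomes or splicing, Zfp692 was the called gene. Zfp638, an RNA-binding factor that also takes part in silencing of retroviral DNA and in adipocyte differentiation, had 24.8, 20.6 and 21.0 CPM in HFD and 27.2, 31.2 and 36.0 CPM in HTG. The groups did not overlap, but the log2 fold change of 0.51 (SE 0.17, edgeR adjusted p = 0.118) did not pass. The ribosome assembly factor Zfp622 had -0.16 (SE 0.28) and the splicing-associated Zfp830 had 0.25 (SE 0.24), both on the log2 scale.

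The 5 lower members at an unadjusted p under 0.05 were Zfp652, Zfp827, Zfp706, Zfp664 and Zfp784, the last described above. Zfp652, a DNA-binding partner of the corepressor Cbfa2t3, had 31.5, 38.1 and 25.5 CPM in HFD and 23.4, 20.9 and 20.6 CPM in HTG. The groups did not overlap, and the log2 fold change was -0.55 (SE 0.18, edgeR adjusted p = 0.118). Zfp706, a small protein that restrains self-renewal in embryonic stem cells, had 76.4, 94.3 and 78.7 CPM in HFD and 71.8, 47.1 and 53.3 CPM in HTG. HTG library 1 was close to HFD library 1, and the log2 fold change of -0.54 (SE 0.21, edgeR adjusted p = 0.158) passed only when that library was left out or when FPKM values were tested with limma on genes with a mean of at least 1 FPKM. Zfp827, which recruits the NuRD complex to telomeres, had 38, 41 and 64 counts in HFD and 20, 26 and 14 in HTG. With at most 64 counts in any library, it had a log2 fold change of -1.33 (SE 0.50, edgeR adjusted p = 0.151). Zfp664 had 14.9, 20.1 and 18.5 CPM in HFD and 12.1, 10.8 and 15.7 CPM in HTG, with overlapping groups and a log2 fold change of -0.47 (SE 0.20, edgeR adjusted p = 0.196).

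Zfp644 and Zfp687, parts of histone-modifying and reader complexes, had log2 fold changes of -0.01 (SE 0.18) and 0.28 (SE 0.19). Among genes of development, Zfp800 had 4.36, 4.50 and 5.60 CPM in HFD and 6.70, 9.14 and 7.49 CPM in HTG. This separation gave a log2 fold change of 0.69 (SE 0.23, edgeR adjusted p = 0.116). Zfp750, a regulator of epidermal differentiation, had -0.52 (SE 0.25), Zfp703 had -0.14 (SE 0.27) and Zfp704 had -0.08 (SE 0.28) on the log2 scale. The DNA repair factor Zfp668 stood at 4.48 ± 1.34 CPM in HFD and 4.66 ± 0.570 CPM in HTG (mean ± SD, n = 3), and Zfp768 at 20.0 ± 4.19 and 19.9 ± 0.915 CPM.

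Of the 5 members with the highest FPKM, Zfp970, Zfp706 and Zfp825 were neither called nor in a retroviral role. Zfp970 (chromosome 2) had 28.1, 19.8 and 39.2 CPM in HFD and 21.6, 38.3 and 58.2 CPM in HTG, with overlapping groups. Zfp825 (chromosome 13) had 14.3, 13.0 and 10.2 CPM in HFD and 17.6, 19.5 and 18.1 CPM in HTG. Its groups were separate and its log2 fold change was 0.56 (SE 0.18, edgeR adjusted p = 0.108). One feature singled out after its values were seen was Zfp959 (chromosome 17), with 568, 23 and 383 counts in HFD and 597, 852 and 437 in HTG, where HFD library 2 alone was low.

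Position was not used directly to choose the members. Neighbouring genes can carry successive numbers, as Zfp975, Zfp976 and Zfp977 on chromosome 7 do, so the choice by symbol was not independent of position. With members on 1 chromosome joined where their starts lay within 500 kb of the next, 100 of 166 members fell into 18 groups of 3 or more. Of the 93 tested members in groups, 10 were called higher (10.8%) and 83.9% were fitted above 0. Outside groups these were 8 of 63 (12.7%) and 65.1%. Of all genes tested, 5.41% were called higher and 51.6% were fitted above 0. The called members in groups came from 8 groups. The median log2 fold change was above 0 in 17 of the 18 groups. Neighbouring zinc finger genes are near-identical copies in part, and how reads that fit several copies were counted is not given in the sources used here, so their values are not independent and single genes in an array are uncertain.

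The largest group held 17 members on chromosome 4 (145237329 to 147932823), of which 11 were tested. Its members were low, with a median of 0.517 FPKM, and 10 of the 11 were fitted above 0, with a median log2 fold change of 0.49. Zfp981 was its called gene. Zfp980 had 40, 8 and 29 counts in HFD and 64, 116 and 93 in HTG, with a log2 fold change of 1.83 (SE 0.64, edgeR adjusted p = 0.126). Zfp992, with more counts, had 393, 279 and 418 in HFD and 574, 763 and 438 in HTG, and its log2 fold change was 0.64 (SE 0.23). Zfp982 was the exception at -0.39 (SE 0.36). The other tested genes of the group were Zfp600 with 0.98 (SE 0.50), Zfp993 with 0.93 (SE 0.52), Zfp933 with 0.49 (SE 0.26), Zfp987 with 0.46 (SE 0.90), Zfp979 with 0.37 (SE 0.36), Zfp991 with 0.26 (SE 0.38) and Zfp984 with 0.14 (SE 0.31). Zfp987 had only 37, 8 and 10 counts in HFD and 11, 23 and 35 in HTG. Over the alternatives its log2 fold change ran from -0.50 to 1.49, and that of Zfp984 from -0.06 to 0.45, so neither kept its sign. The HTG libraries lay above the HFD libraries in CPM in 5 of the 11 (45.5%, where 16.5% of all genes did so). Summed CPM of the group were 21.2, 14.5 and 19.8 in HFD and 24.5, 24.7 and 28.3 in HTG.

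The group on chromosome 17 (21604010 to 23086108) had 14 members, all tested, with a median of 1.58 FPKM. Of these, 13 were fitted above 0, with a median log2 fold change of 0.48 over the 14. In 8 (57.1%) the HTG libraries lay above the HFD libraries in CPM, where 16.5% of all genes did so. The called gene was Zfp760, with 5.80, 3.31 and 4.75 CPM in HFD and 6.05, 12.5 and 16.4 CPM in HTG. HTG library 1 exceeded HFD library 1 by little, and the log2 fold change was 1.33 (SE 0.38, edgeR adjusted p = 0.0873), or 1.0 without HTG library 3. Zfp820 had 207, 191 and 189 counts in HFD and 310, 551 and 238 in HTG. Zfp947 was the exception at -0.29 (SE 0.37). Between these lay Zfp677 with 0.83 (SE 0.37), Zfp945 with 0.68 (SE 0.28), Zfp983 with 0.60 (SE 0.26), Zfp944 with 0.55 (SE 0.18), Zfp948 with 0.49 (SE 0.22), Zfp946 with 0.46 (SE 0.17), Zfp943 with 0.39 (SE 0.22), Zfp995 with 0.36 (SE 0.26), Zfp942 with 0.24 (SE 0.23), Zfp758 with 0.23 (SE 0.28) and Zfp994 with 0.15 (SE 0.26). Summed CPM were 97.8, 86.0 and 72.5 in HFD and 103, 136 and 130 in HTG.

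The group of 9 members on chromosome 7 (126843446 to 127485164) stood nearer to 0, with a median log2 fold change of 0.23 and 0 calls in edgeR in either direction. By unadjusted p under 0.05 there was 1 higher member (Zfp629, 11.1%, against 12.3% of all genes) and 0 lower (against 12.4%), and DESeq2 called 0. At an adjusted p under 0.1 edgeR called 5.41% of all genes higher and 5.43% lower, and DESeq2 7.12% and 8.47%. Zfp629 had 1077, 947 and 972 counts in HFD and 1544, 1983 and 866 in HTG, a log2 fold change of 0.43 (SE 0.15, edgeR adjusted p = 0.135). Besides Zfp668 and Zfp768, given above, the group held Zfp688 with 0.65 (SE 0.30), Zfp764 with 0.34 (SE 0.37), Zfp689 with 0.28 (SE 0.29), Zfp747 with 0.23 (SE 0.30), Zfp646 with 0.00 (SE 0.17) and Zfp771 with -0.14 (SE 0.46). The HTG libraries lay above the HFD libraries in CPM in 2 of the 9 (22.2%, where 16.5% of all genes did so). Summed CPM of this group were 80.3 ± 9.53 in HFD and 89.0 ± 2.05 in HTG (mean ± SD, n = 3).

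**Figure D3:**
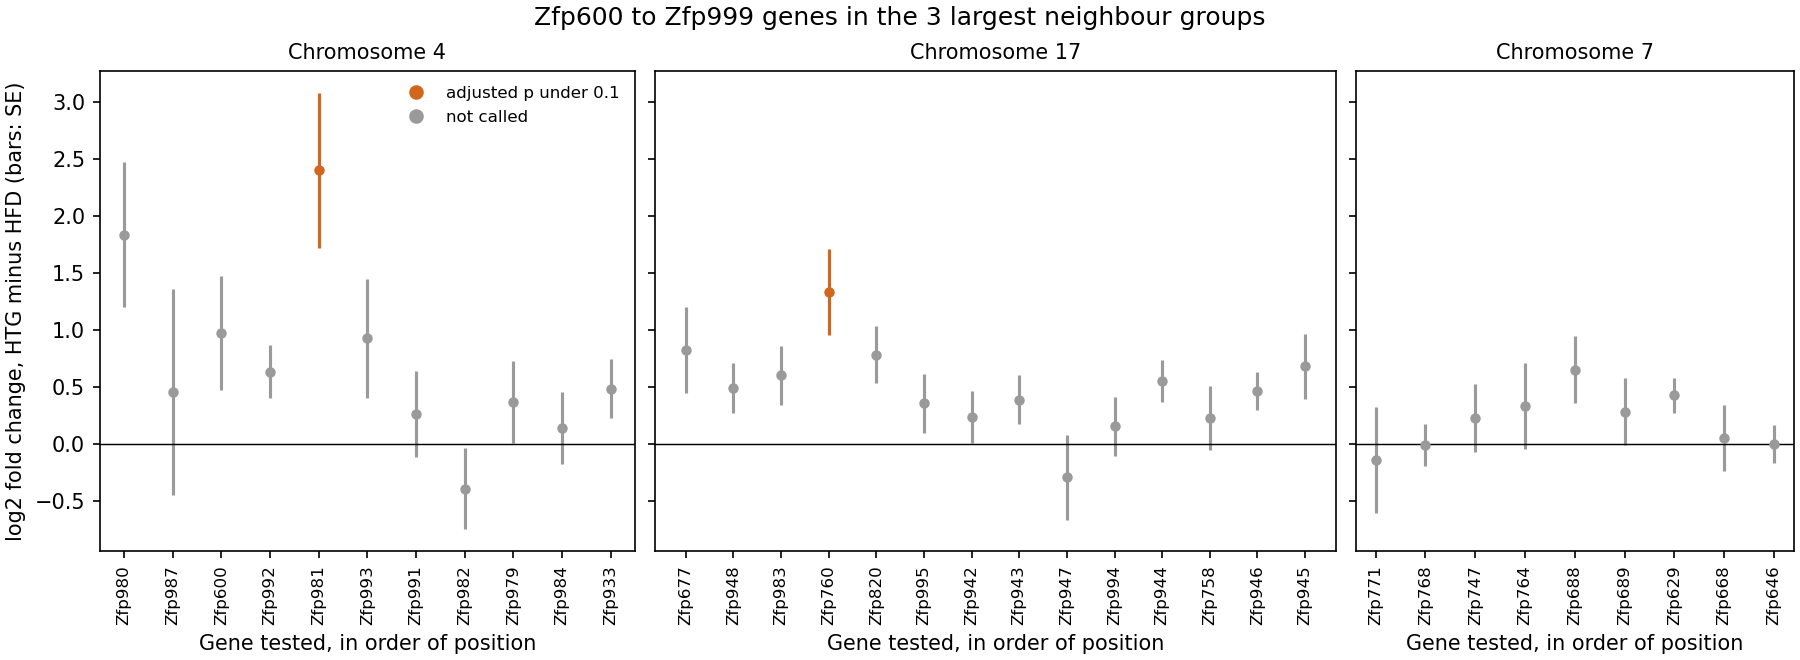
Log2 fold changes (HTG minus HFD, bars are standard errors) of the tested genes in the 3 largest neighbour groups, in order of position along chromosomes 4, 17 and 7, with called genes in orange. In the chromosome 4 group 10 of 11 points and in the chromosome 17 group 13 of 14 points lie above 0, while the chromosome 7 group has a median of 0.23.

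Of the 18 groups, 10 had 0 calls in edgeR at an adjusted p under 0.1, 6 had 1 and 2 had 2, where 5.41% of all genes were called higher. The 2 with most calls are given here, chosen after their values were seen. One held 4 members on chromosome 9 (21966707 to 22218944), with Zfp653, Zfp872, Zfp809 and Zfp810, where all 4 were fitted above 0, 2 were called and the median was 0.82. On chromosome 7 (42945621 to 43267640), 2 of 3 tested members, Zfp715 and Zfp658, were called. Zfp715 had 1106, 1038 and 750 counts in HFD and 1989, 2256 and 1009 in HTG. Zfp719 beside them had 210, 309 and 216 counts in HFD and 364, 363 and 193 in HTG, with a log2 fold change of 0.22 (SE 0.27).

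Other zinc finger genes were tallied in the same way. In edgeR at an adjusted p under 0.1, 5.41% of all genes were higher and 5.43% lower. Of the 193 protein-coding genes Zfp1 to Zfp599, 181 were tested, 20 (11.0%) were higher and 1 (0.552%) was lower, with a median log2 fold change of 0.31. Of 41 tested Zbtb genes, which join fingers to a BTB domain, 2 (4.88%) were higher and the median was 0.15. Of 19 tested Zscan and Zkscan genes, which carry a SCAN domain, 1 (5.26%) was higher and the median was 0.25. At an unadjusted p under 0.05, 10 Zbtb genes (24.4%, the members' share too, against 12.3% of all genes) were higher and 3 lower (7.32% against 12.4%). DESeq2 called 4 of them higher and 2 lower, where it called 7.12% and 8.47% of all genes. For Zscan and Zkscan these were 5 higher (26.3%) and 1 lower, and 4 and 0 in DESeq2. In both lists 0 genes were lower in edgeR at an adjusted p under 0.1. Members with the KRAB and KAP entry had 6 of 74 called (8.11%) and those without it 12 of 82 (14.6%), with medians of 0.29 and 0.40. This split follows an annotation entry and was not checked against the KRAB domain itself. The retroviral silencers Zfp809 and Zfp932 lacked the entry, whereas Zfp706 and Zfp750 had it. The 94 tested genes with that entry outside the members had 9 called higher (9.57%) and a median of 0.35. No difference between these lists was tested.

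Other genes of the silencing pathway were examined as a list. Of 35 genes for corepressors, H3 lysine 9 methylation, heterochromatin protein 1, NuRD, HUSH and DNA methylation, all tested, 1 was higher (2.86%, against 5.41% of all genes), 1 was lower (2.86% against 5.43%), and 18 were fitted above 0, at a median log2 fold change of 0.02. At an unadjusted p under 0.05, 6 were higher (17.1%, against 12.3% of all genes) and 1 lower (2.86% against 12.4%), DESeq2 called 4 higher and 1 lower (7.12% and 8.47% of all genes), and the groups did not overlap in 8 higher (22.9%) and 3 lower genes (8.57%), where 16.5% and 15.5% of all genes did so. Trim28 had 82.9, 86.2 and 70.4 CPM in HFD and 76.7, 74.5 and 69.0 CPM in HTG. The groups overlapped, with a log2 fold change of -0.12 (SE 0.17, edgeR adjusted p = 0.685). Setdb1 had 27.9, 29.5 and 29.5 CPM in HFD and 31.7, 38.0 and 36.8 CPM in HTG. Its groups were separate, with a log2 fold change of 0.30 (SE 0.15, edgeR adjusted p = 0.269).

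The higher gene was Morc2a, an ATPase that works with HUSH, at 19.3, 26.0 and 17.4 CPM in HFD and 31.7, 38.2 and 34.4 CPM in HTG. HTG exceeded HFD by 0.73 on the log2 scale (SE 0.19, edgeR adjusted p = 0.0756). The lower gene was Rbbp7, a histone chaperone of NuRD and other complexes, at 38.9, 51.0 and 48.4 CPM in HFD and 24.2, 16.4 and 18.2 CPM in HTG. Its log2 fold change was -1.24 (SE 0.20, edgeR adjusted p = 0.0538). The HTG libraries were thus clearly below the HFD libraries for Rbbp7.

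The makeup of the RNA also moved with the group. The 13 mitochondrial mRNAs, of which mt-Co1 was the most abundant, were all higher, with a median log2 fold change of 1.21, and made up 6.31%, 4.82% and 5.18% of counts in HFD and 9.12%, 14.9% and 13.0% in HTG. HTG library 1, the lowest of its group in most of the called members, was also the lowest here. All rows of the mitochondrial chromosome were also left out before scaling, an alternative chosen after seeing the data. In that fit edgeR had 18 members higher (11.5%, against 5.09% of all genes) and 0 lower (against 5.17%), and the members' median was 0.34. The list of 3 nuclear-retained RNAs, led by Neat1, had summed levels of 491, 551 and 1058 CPM in HFD and 712, 3296 and 1715 CPM in HTG, with 0 of 3 genes called in edgeR, 1 higher (Neat1) and 1 lower (Meg3) at an unadjusted p under 0.05 and 1 lower in DESeq2. The part of these RNAs in the members' levels was not tested beyond the fit without mitochondrial rows.

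Markers of cell types were examined beside the members, and their part was not tested. Calls are those of edgeR at an adjusted p under 0.1, where 5.41% of all genes were higher and 5.43% lower. Hepatocyte markers were by far the most abundant of the cell type lists, as the liver label asks, led by Alb, with 6 of 6 tested, 1 higher (Apoa1), 1 lower (Cps1) and summed levels of 80189, 88068 and 97102 CPM in HFD and 80587, 84452 and 84618 CPM in HTG. Macrophage markers, led by Clec4f, had 1 of 4 lower (Adgre1), with sums of 368, 199 and 379 CPM in HFD and 321, 304 and 170 CPM in HTG. Stellate cell markers, led by Reln, had 1 of 4 lower (Reln), with sums of 49.9, 39.9 and 70.8 CPM in HFD and 40.0, 42.8 and 34.7 CPM in HTG. Des went the other way, from 5.06, 3.13 and 3.87 CPM in HFD to 6.02, 6.50 and 6.85 CPM in HTG (log2 fold change 0.68, unadjusted p = 0.0254, edgeR adjusted p = 0.143). Cholangiocyte markers, led by Sox9, had 1 of 4 higher (Sox9), with sums of 8.41, 10.2 and 9.91 CPM in HFD and 10.9, 10.9 and 10.7 CPM in HTG. Epcam was lower at an unadjusted p of 0.0312 (log2 fold change -0.95, edgeR adjusted p = 0.158), with 2.75, 3.96 and 1.91 CPM in HFD and 1.90, 1.24 and 1.30 CPM in HTG.

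The other lists had 0 calls at an adjusted p under 0.1 in edgeR and in DESeq2, and at an unadjusted p under 0.05 their genes gave 1 lower call, in the red cell list, and 0 higher. Endothelial markers, led by Stab2, summed to 98.2, 44.1 and 78.3 CPM in HFD and 116, 114 and 74.9 CPM in HTG. Lymphocyte markers, led by Cd3g, summed to 4.52, 2.55 and 2.95 CPM in HFD and 3.49, 5.74 and 3.63 CPM in HTG. Red cell genes, led by Hba-a1, summed to 257, 234 and 422 CPM in HFD and 279, 484 and 258 CPM in HTG. Of the pancreatic markers, Ctrb1 was at 0 in all libraries and Prss2 near 0, and Cela1 carried the sum of 5.83, 4.57 and 5.25 CPM in HFD and 5.38, 8.06 and 5.53 CPM in HTG.

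Overlap with other listed genes concerned 57 of the 166 members. The 100 tested members without an overlap had 11 called (11.0%) and 76.0% fitted above 0. The 56 tested members with one had 7 called (12.5%) and 76.8% fitted above 0. Over all genes tested, 5.41% were called higher and 51.6% were fitted above 0. The called Zfp839 shares its place with the pseudogene Mpc1-ps on the opposite strand, which had 3890, 3685 and 3784 counts in HFD and 3192, 2405 and 1091 in HTG. Zfp839 itself had 614, 468 and 495 counts in HFD and 820, 1336 and 705 in HTG, the opposite direction. Zfp653, a nuclear receptor corepressor, overlaps Gm16845 on the opposite strand, which had 11, 52 and 44 counts in HFD and 59, 190 and 47 in HTG, against 854, 896 and 532 in HFD and 1559, 2278 and 788 in HTG for Zfp653.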

How the data were processed

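As deposited by the authors, each gene and library has an expected count (estimated by the authors and rounded) and an FPKM, which the authors scaled for transcript length and library size. The submitters' processing notes name HISAT2, StringTie, SAMtools and the rat build mRatBN7.2, which the mouse rows leave in doubt, so coordinates are as the table lists them with no build. The counting step and its use of strand are not given in the sources used here. Counts were tested as deposited in edgeR 4.0.16 (R 4.3.3; TMM, filterByExpr, glmQLFTest, Benjamini-Hochberg adjustment over all genes tested), HTG minus HFD, without covariates. DESeq2 1.42.0 and limma 3.58.1 on log2(FPKM + 0.1), run where the mean reached 1 FPKM, were alternatives. With 3 libraries against 3 an exact permutation test cannot go below p = 0.1. The adjusted p threshold of 0.1 was chosen knowing that few genes pass 0.05.

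Members and lists were chosen with earlier results of these data known. Genes named are, in each direction, the 10 with the smallest p among called members whose groups do not overlap and whose mean reaches 50 counts, the 5 highest in FPKM, the tested members of the role list and of the 3 largest neighbour groups, those in the study's heatmap, Trim28, Setdb1 and called genes of the pathway, and members at or under 12 counts in 1 group. Others were named after their values were seen. Scripts were tested on simulated counts. Reference tables of the rat were not used here.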

Additional observations from a re-analysis of the deposited data

How the results depend on the processing

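The median log2 fold change of the tested members stayed above 0 in every alternative run, between 0.27 with limma on FPKM (77 members) and 0.37 with upper-quartile scaling, and between 0.26 and 0.38 when 1 library was left out. Leaving out HFD library 3 gave 0.26. The cause was not tested. Higher members numbered 22 with DESeq2 (14.1%, against 7.12% of all genes), 17 with DESeq2's size factors (10.9% against 4.91%) and 20 with upper-quartile scaling (12.8% against 6.06%). A minimum of 10 counts in every library gave 22 (14.9% against 8.58%) and counts divided by 4 gave 26 (17.7% against 9.02%). With limma on FPKM there were 15 of the 77 members with a mean of at least 1 FPKM (19.5% against 8.55%). No filter, with more genes tested, gave 11 (6.79% against 2.14%). The number was 0 at an adjusted p under 0.05 (against 0.00542%) and 38 at an unadjusted p under 0.05 (24.4% against 12.3%). It lay between 0 and 12 with 1 library left out, for reasons that were not tested. Lower members numbered 2 with a minimum of 10 counts (Zfp652 and Zfp827, 1.35% against 7.98% of all genes) and 1 with limma on FPKM (Zfp706, 1.3% against 13.4%). At an unadjusted p under 0.05 they numbered 5 (3.21% against 12.4%). They numbered between 0 and 1 with 1 library left out, the 1 being without HTG library 1 (0.641% against 8.16%). The called Zfp606, Zfp658, Zfp872, Zfp977 and Zfp981 fell below the FPKM minimum of the limma test.

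The values did not show a pairing of libraries by replicate number, and with 3 libraries per group they cannot exclude one. Deviations from the group means of libraries with the same number correlated at -0.08, -0.07 and 0.10, and with the number as a block edgeR called 0 members in either direction, with a median of 0.33. Of the 166 members, 10 were too low to judge. Values near 12 counts, such as those of Zfp981 in HFD and in HTG library 3, rest on a few fragments.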
